A study of Mus musculus with 12 samples.

Results

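The cytosolic heat shock chaperone genes measured here are 10 genes chosen by family: *Hspa1a*, *Hspa1b*, *Hspa8*, *Hspa4*, *Hspa4l*, *Hsph1*, *Hsp90aa1*, *Hsp90ab1*, *Dnajb1* and *Hsf1*. They were found by their symbols among 55487 gene identifiers, and all 10 had counts. Of these, 9 were among the 8984 genes with a CPM (counts scaled to the total of the library) of at least 5 in at least 3 of 12 libraries, the condition for testing. *Hspa1a* was below it, and *Hspa1b* reached it through the *Trpm3*-M/M libraries alone. Levels in CPM below also carry TMM scaling factors on the library total, from 0.828 in a wild-type to 1.27 in a *Trpm3*-M/M library. They are therefore not shares of that total. *Trpm3* encodes a calcium-permeable cation channel, and lens RNA of P7 mice, 7 days old, was sequenced for 4 genotypes with 3 libraries apiece. The p.I65M substitution, made by CRISPR/Cas9 editing, was on 1 allele in *Trpm3*-I/M and on both alleles in *Trpm3*-M/M mice. *Trpm3*-KO mice carried a *Trpm3* gene targeted by homologous recombination with an IRES-*LacZ*-*neo* cassette, and wild-type mice carried neither change. All were on the C57BL/6J background per the study's methods, which give each library as a pool of lenses from males and females.

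*Trpm3* itself was measured first as a check of the labels. Its level was 269 ± 17.3 CPM (SD, n = 3) in wild-type, 95.3 ± 5.02 in *Trpm3*-KO lenses, 387 ± 23.4 in *Trpm3*-I/M lenses and 475 ± 8.02 in *Trpm3*-M/M lenses, with no overlap between genotypes. Totals counted on genes ran from 56162169 to 82090198 per library. In *Trpm3*-I/M replicate 3, *Xist* was at 0.0721 CPM against 45.8 to 305 CPM in the other 11 libraries, which goes against a pool of both sexes. Results on *Trpm3*-I/M lenses are therefore given with and without this library where it changed a call. Markers of lens fiber cells were abundant in every library, at 59310 to 110000 CPM summed over 10 genes.

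HSP70 proteins bind unfolded stretches of other proteins and release them in cycles driven by ATP. J-domain proteins (HSP40) start that cycle, HSP110 proteins exchange the nucleotide, and HSP90 proteins act on partly folded clients downstream. The transcription factor HSF1 induces *Hspa1a* and *Hspa1b* when proteins misfold, whereas *Hspa8* and *Hsp90ab1* are expressed constitutively, and mature lens fiber cells, which lose their nuclei, keep their proteins for life.

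*Hspa1a* and *Hspa1b* are neighbouring single-exon genes on the minus strand of chromosome 17 in GRCm38, at 34969190 to 34972156 and 34956436 to 34959238. They lie 9951 bases apart. The 150 bases before each start site are shown because both genes moved together in the mutants and because these stretches are alike at 149 of 150 positions. The sequences are from RefSeq for GRCm38.p6, minus strand, at chr17:34972157-34972306 for *Hspa1a* and chr17:34959239-34959388 for *Hspa1b*. Capitals mark a match to GAANNTTC, a pair of inverted heat shock element units.
Hspa1a: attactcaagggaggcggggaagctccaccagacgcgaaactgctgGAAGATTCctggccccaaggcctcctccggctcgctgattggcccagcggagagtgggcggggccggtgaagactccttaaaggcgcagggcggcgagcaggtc
Hspa1b: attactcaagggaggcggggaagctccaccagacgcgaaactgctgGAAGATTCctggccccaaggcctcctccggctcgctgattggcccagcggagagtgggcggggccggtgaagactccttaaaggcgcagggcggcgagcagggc

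The match lies 104 to 97 bases before the start site in both genes. The search took GAANNTTC and TTCNNGAA, which read the same on both strands, over the 250 bases before each start site, and 12.8% of the 32851 windows in the RefSeq table held one of them. *Hsph1* held TTCTCGAA 33 to 26 bases before its upstream start site. The windows of *Hspa4*, *Hspa4l* and *Dnajb1* held neither form. No window of these 6 genes held the longer GAANNTTCNNGAA or TTCNNGAANNTTC, which 0.466% of all windows did. The table holds no window for the other 4 genes.

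*Hspa1b*, which encodes the stress-inducible HSP70, rose in both p.I65M genotypes and was not called in *Trpm3*-KO lenses. Its level was 0.590, 0.756 and 0.496 CPM in the wild-type libraries and 0.561, 0.597 and 0.319 CPM in the *Trpm3*-KO libraries. It was 3.69, 2.80 and 2.80 CPM in the *Trpm3*-I/M libraries and 8.51, 8.48 and 7.25 CPM in the *Trpm3*-M/M libraries. Every *Trpm3*-I/M library was above every wild-type and *Trpm3*-KO library, and every *Trpm3*-M/M library was above every *Trpm3*-I/M library. The level in *Trpm3*-M/M lenses was 13.2-fold that in wild-type lenses (log2 fold change 3.72, SE 0.19, adjusted p = 2.03e-09, edgeR quasi-likelihood test, Benjamini–Hochberg adjustment over all tested genes). In *Trpm3*-I/M lenses it was 5.05-fold that in wild-type lenses (log2 fold change 2.34, SE 0.20, adjusted p = 1.51e-06 by the same edgeR test), and 2.40 on the log2 scale without *Trpm3*-I/M replicate 3. The difference between both mutants was itself past the threshold, at 2.61-fold (log2 fold change 1.38, SE 0.15, adjusted p = 5.31e-06, edgeR). In *Trpm3*-KO lenses the log2 fold change was -0.31 (SE 0.27, adjusted p = 0.603, edgeR). *Hspa1b* reached the filter on low values only through the *Trpm3*-M/M libraries, in which it is high, so its tests depend on that group. It fell out of the test when any 1 *Trpm3*-M/M library was left out, and then stood at 3.68 to 3.79 on the log2 scale above wild-type with the filter lowered to a CPM of at least 1, a change chosen after seeing the data.

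**Figure D1:**
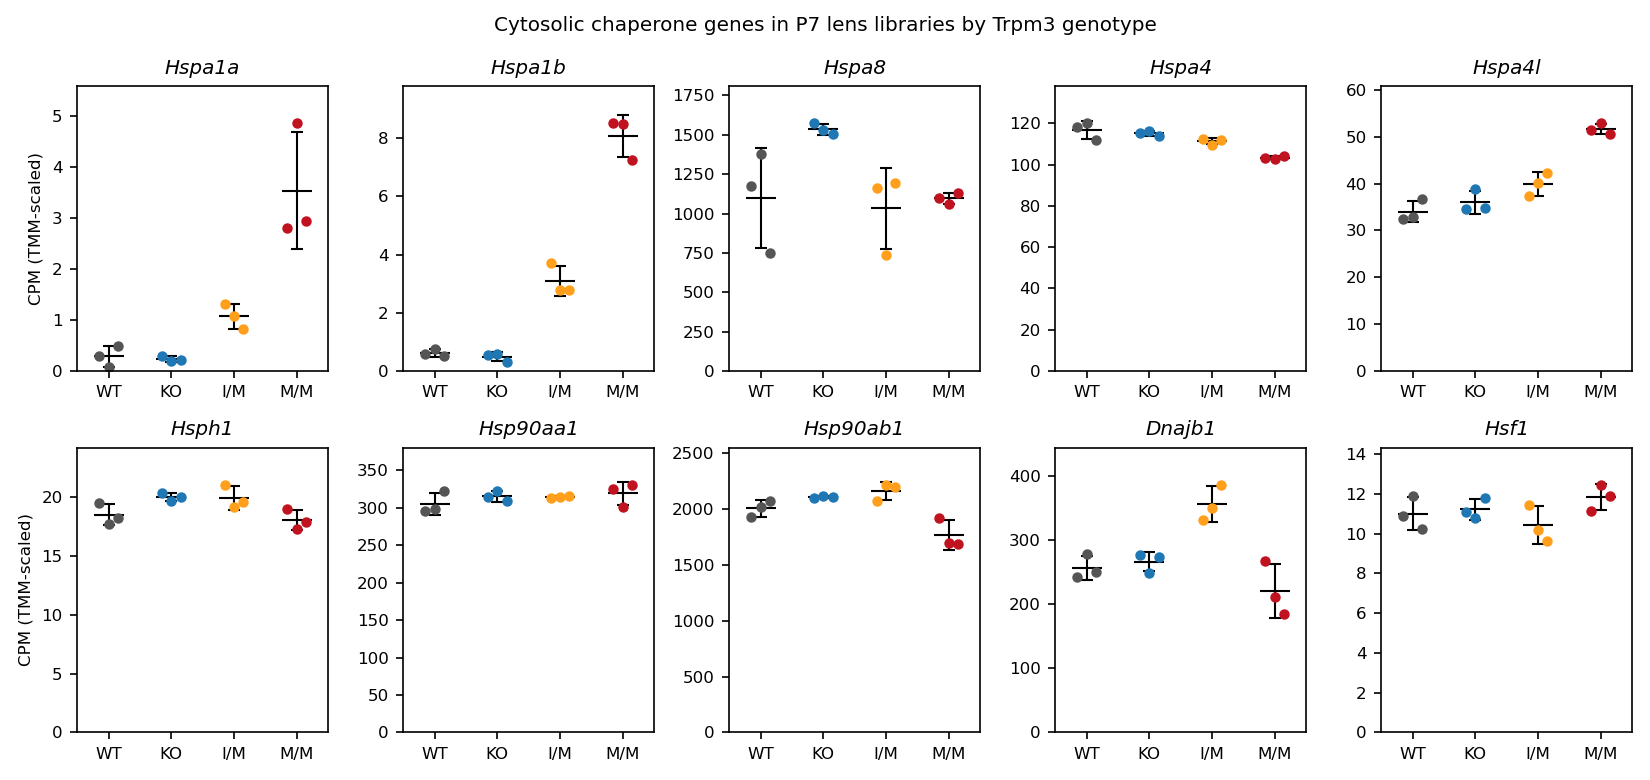
Level of each of the 10 chaperone genes (CPM with TMM scaling, y axis from 0) in each library by *Trpm3* genotype (WT wild-type, KO, I/M, M/M); points are libraries, and the bar with whiskers is the mean ± SD of 3. *Hspa1b* stepped up from 0.319 to 0.756 CPM in wild-type and KO to 7.25 to 8.51 CPM in M/M, while *Dnajb1* was highest in I/M at 332 to 386 CPM.

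*Hspa1a* followed *Hspa1b* at a lower level. It stood at 0.295, 0.0840 and 0.496 CPM in wild-type, 0.299, 0.199 and 0.207 in *Trpm3*-KO libraries, 1.31, 1.08 and 0.822 in *Trpm3*-I/M libraries and 2.80, 4.86 and 2.95 in *Trpm3*-M/M libraries. The wild-type values rest on 3.95 to 24.5 estimated counts per library, and they overlapped the *Trpm3*-KO values and lay below every mutant library. With the filter lowered to a CPM of at least 1, which *Hspa1a* reached through mutant libraries alone, the log2 fold change from wild-type was 3.56 in *Trpm3*-M/M lenses (SE 0.36, adjusted p = 1.44e-06, edgeR) and 1.85 in *Trpm3*-I/M lenses (SE 0.40, adjusted p = 0.00337, edgeR). In *Trpm3*-KO lenses it was -0.33 (SE 0.54, adjusted p = 0.827, edgeR). Of the stretches of 100 bases in *Hspa1a* transcripts, 47.1% also occur in *Hspa1b*, so the counting may split reads between them. In the libraries 9.92% to 49.5% of the pair's counts were placed on *Hspa1a*. The sum of both does not depend on that split. It was 0.905 ± 0.0775 CPM (SD, n = 3) in wild-type, 0.721 ± 0.170 in *Trpm3*-KO lenses, 4.17 ± 0.743 in *Trpm3*-I/M lenses and 11.6 ± 1.59 in *Trpm3*-M/M lenses. As 1 feature, the pair differed from wild-type by 3.68 on the log2 scale in *Trpm3*-M/M lenses (adjusted p = 1.05e-09, edgeR) and by 2.20 in *Trpm3*-I/M lenses (adjusted p = 1.12e-06, edgeR). *Hspa1a* also overlaps *Gm20481* on the other strand, which held at most 4.02 counts in any library.

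Marker levels of other cell types differed between the same genotypes. The summed level of 9 macrophage markers was 0.476 to 0.629 CPM in wild-type, 0.411 to 0.452 in *Trpm3*-KO libraries, 1.04 to 1.12 in *Trpm3*-I/M libraries and 9.74 to 20.1 in *Trpm3*-M/M libraries; none of the 9 was tested at these levels. The 8 vascular endothelium markers summed to 13.8 to 16.3, 13.7 to 14.97, 24.7 to 30.6 and 55.3 to 64.5 CPM in the same order of genotypes. In wild-type *Egfl7* and *Tek* led this sum, at 7.78 and 5.70 CPM on average. *Tek* rose in *Trpm3*-M/M lenses (log2 fold change 1.05, adjusted p = 7.31e-07, edgeR), and *Egfl7* did not (0.06, adjusted p = 0.577, edgeR). In *Trpm3*-I/M lenses *Egfl7* was lower (-0.30, adjusted p = 0.0241, edgeR), a call lost without *Trpm3*-I/M replicate 3. The 10 pericyte and fibroblast markers summed to 159 to 168 CPM in wild-type and 311 to 449 in *Trpm3*-M/M libraries. *Pdgfra*, in this list, went the other way, from 79.4 ± 4.47 to 38.97 ± 1.63 CPM (SD, n = 3; log2 fold change -1.03, adjusted p = 3.21e-09, edgeR). Of the tested genes in these lists, 4 of 6 endothelium and 4 of 7 pericyte and fibroblast markers reached the filter only through the *Trpm3*-M/M libraries, so no count of calls is given for them. No marker of these 3 lists was at 0 in every library, though *Lum* held at most 3 counts in each. Lens epithelium markers (7 genes) summed to 1444 to 1487 CPM in wild-type and 974 to 1009 in *Trpm3*-M/M libraries, a sum that *Sfrp1* led at 1078 ± 13.5 and 685 ± 11.8 CPM (SD, n = 3). Of the 7, 4 were lower and 2 higher, *Pdpn* 1.65-fold (adjusted p = 2.11e-07, edgeR) and *Npnt* 1.33-fold (adjusted p = 2.75e-05, edgeR), with 31.4% of all tested genes called in each direction. Lens fiber markers fell from 96820 to 110000 CPM to 59310 to 61340 CPM, with 9 of 10 lower by the test. Red blood cell markers (6 genes) summed to at most 15.01, neural retina markers (10 genes) to at most 5.55 and pigmented cell markers (7 genes) to at most 6.22 CPM in any library, with *Rpe65* at 0 in all. Crystallin genes took 62.1 ± 1.56% of counts (SD, n = 3) in wild-type and 50.5 ± 1.01% in *Trpm3*-M/M lenses. In bulk RNA, a change in the share of cells of a type and a change in RNA per cell cannot be told apart. The part of these shifts in the chaperone values was not tested.

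Of 14 immediate early genes, which respond within minutes to stimuli, 6 were tested, and 4 of these (*Egr1*, *Fosl2*, *Junb* and *Nr4a1*) reached the filter only through the *Trpm3*-M/M libraries, in which they are high. The other 2, *Jun* and *Jund*, were higher in *Trpm3*-M/M than in wild-type lenses by 0.39 (adjusted p = 0.00222, edgeR) and 0.54 (adjusted p = 2.96e-05, edgeR) on the log2 scale. In the same comparison *Fosl2* was 13.8-fold (adjusted p = 6.00e-10, edgeR), *Junb* 5.59-fold (adjusted p = 1.11e-04, edgeR) and *Nr4a1* 5.34-fold (adjusted p = 1.09e-07, edgeR) the wild-type level. In *Trpm3*-I/M lenses, where *Hspa1b* was also up, *Fosl2* was 3.93-fold wild-type (adjusted p = 2.87e-06, edgeR), while *Junb* (log2 fold change -0.84, adjusted p = 0.194, edgeR) and *Nr4a1* (-0.05, adjusted p = 0.895, edgeR) did not pass the threshold. *Egr1* was higher in *Trpm3*-M/M lenses (log2 fold change 2.19, adjusted p = 2.98e-05, edgeR) and lower in *Trpm3*-I/M lenses (-1.58, adjusted p = 0.00549, edgeR). The part of these genes in the chaperone values was not tested.

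Among the members, only the *Hspa1* genes moved by 2-fold or more from wild-type with TMM scaling. With scaling by library size only, *Hspa4l* did so too in *Trpm3*-M/M lenses, at 2.16-fold (log2 fold change 1.11, adjusted p = 7.71e-09, edgeR). In *Trpm3*-M/M against wild-type lenses, 2 of the 9 tested members were higher (*Hspa4l* and *Hspa1b*) and 2 were lower (*Hspa4* and *Hsp90ab1*) at an FDR of at most 0.05, the threshold for a call. The background is 31.4% called higher and 31.4% called lower among all genes tested, and the groups did not overlap for 4 members, against 65.2% of all genes. With scaling by library size only, 9 members were higher and 0 lower, with a background of 82% higher and 5.51% lower. Beyond 2-fold, *Hspa1b* was the 1 tested member higher, beside 6.42% of all genes. It reached the filter only through the *Trpm3*-M/M libraries, in which it is high, so its place in these counts depends on that group. In *Trpm3*-I/M against wild-type lenses 3 members were higher (*Dnajb1*, *Hspa4l* and *Hspa1b*) and 0 lower, with a background of 17.3% higher and 15.3% lower. Libraries did not overlap for 4 members, with a background of 44.6%, and *Hspa1b* alone was higher by 2-fold or more, with a background of 2.58%. In *Trpm3*-KO against wild-type lenses 0 members were called by edgeR or DESeq2 (1 at an unadjusted p below 0.05, *Hspa8*), with a background of 2.16% higher and 2.2% lower. Libraries did not overlap for 3 members (*Hspa8*, *Hsp90ab1* and *Hsph1*, all above wild-type), with a background of 23.2%. These comparisons share the wild-type libraries. In *Trpm3*-M/M against *Trpm3*-I/M lenses 2 members were higher (*Hspa4l* and *Hspa1b*) and 4 lower (*Dnajb1*, *Hspa4*, *Hsp90ab1* and *Hsph1*), with a background of 25.6% higher and 25.7% lower. Without *Trpm3*-I/M replicate 3, 2 were lower, *Dnajb1* and *Hsp90ab1*, beside 2060 of 8974 genes. In *Trpm3*-M/M against *Trpm3*-KO lenses 2 were higher and 5 lower, with a background of 32.3% higher and 32.4% lower. The median log2 fold change of the 9 members against wild-type was -0.003 in *Trpm3*-M/M lenses, 0.11 in *Trpm3*-I/M lenses and 0.05 in *Trpm3*-KO lenses, against medians between -0.0042 and 0.00042 over all genes tested.

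**Figure D2:**
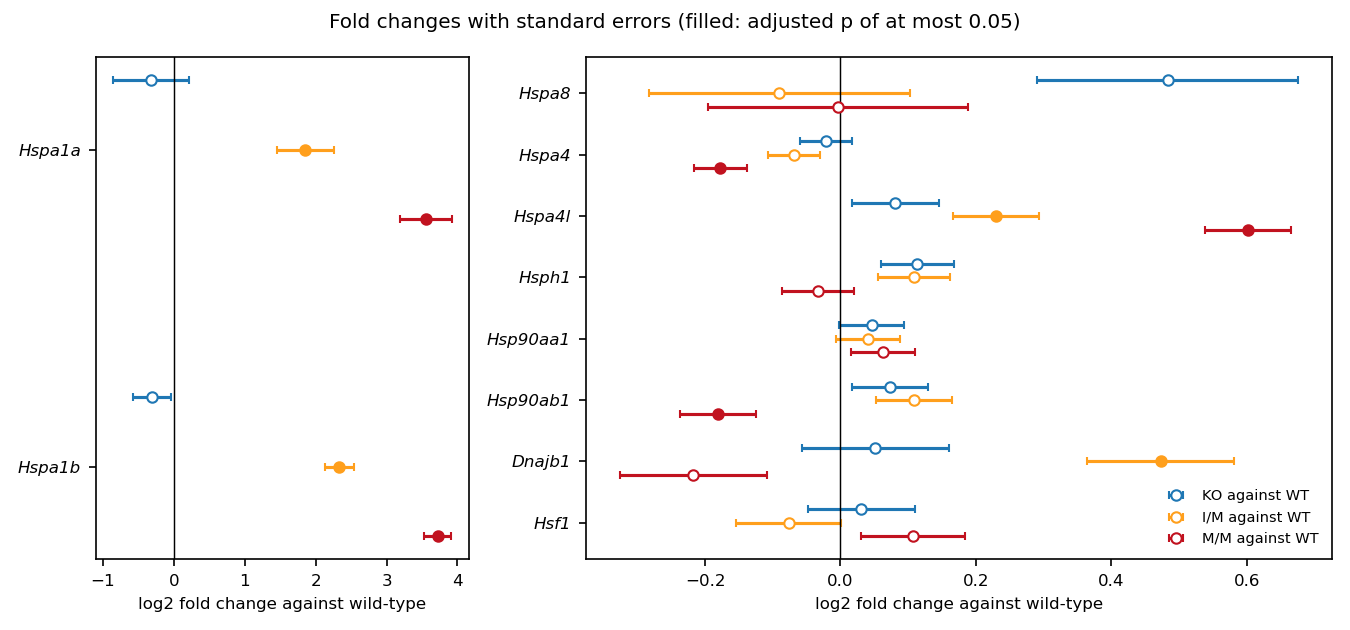
Log2 fold change against wild-type (x axis) with its standard error for each chaperone gene in *Trpm3*-KO, I/M and M/M lenses; filled points have an adjusted p of at most 0.05, *Hspa1a* is from the fit with a CPM of at least 1, and the 2 panels have different x scales. *Hspa1b* stands at 3.72 in M/M and 2.34 in I/M, and the 8 genes of the right panel stay between -0.22 and 0.60.

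Of the 3 HSP110 genes, whose products exchange nucleotide on HSP70, 1 rose and 1 fell in *Trpm3*-M/M lenses. *Hspa4l* was at 32.5, 33.0 and 36.6 CPM in wild-type, 34.5, 38.8 and 34.7 in *Trpm3*-KO libraries, 37.3, 40.2 and 42.3 in *Trpm3*-I/M libraries and 51.4, 52.9 and 50.6 in *Trpm3*-M/M libraries. The *Trpm3*-M/M libraries were above all others, and the *Trpm3*-I/M libraries lay above wild-type by a small margin. It was 1.52-fold wild-type in *Trpm3*-M/M lenses (log2 fold change 0.60, SE 0.06, adjusted p = 2.41e-06, edgeR) and 1.17-fold in *Trpm3*-I/M lenses (0.23, SE 0.06, adjusted p = 0.0143, edgeR). The first call was kept under 22 of 22 alternatives. The second was lost without *Trpm3*-I/M replicate 3 (0.19, adjusted p = 0.0657, edgeR), wild-type replicate 1 (0.19, adjusted p = 0.0607, edgeR) or wild-type replicate 2 (0.20, adjusted p = 0.0556, edgeR). *Trpm3*-M/M lenses exceeded *Trpm3*-I/M lenses 1.29-fold (adjusted p = 2.80e-04, edgeR).

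*Hspa4* moved the other way and by little. It was at 118, 120 and 112 CPM in wild-type, 115, 116 and 114 in *Trpm3*-KO libraries, 113, 110 and 112 in *Trpm3*-I/M libraries and 103, 103 and 104 in *Trpm3*-M/M libraries. The *Trpm3*-M/M libraries were below all others. The log2 fold change of *Trpm3*-M/M against wild-type was -0.18 (SE 0.04, adjusted p = 0.00132, edgeR), and it turned to 0.33 with scaling by library size only, under which the median of all genes moved by 0.50. *Hsph1*, the inducible HSP110 gene, ranged from 17.3 to 21.1 CPM over the 12 libraries, with a log2 fold change in *Trpm3*-M/M lenses of -0.03 (SE 0.05, adjusted p = 0.605, edgeR) and in *Trpm3*-I/M lenses of 0.11 (SE 0.05, adjusted p = 0.141, edgeR). It had no call against wild-type with TMM scaling. With scaling by library size only, it was called at 0.47 in *Trpm3*-M/M lenses (adjusted p = 1.20e-05, edgeR) and 0.31 in *Trpm3*-I/M lenses (adjusted p = 0.00178, edgeR).

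*Dnajb1*, the inducible J-domain partner of HSP70, was highest in the heterozygous mutant. Its level was 242, 278 and 250 CPM in wild-type, 276, 249 and 273 in *Trpm3*-KO libraries, 332, 350 and 386 in *Trpm3*-I/M libraries and 267, 210 and 185 in *Trpm3*-M/M libraries. Each *Trpm3*-I/M library was above every other library, and the *Trpm3*-M/M libraries overlapped wild-type at their upper end. The level in *Trpm3*-I/M lenses was 1.39-fold wild-type (log2 fold change 0.47, SE 0.11, adjusted p = 0.00481, edgeR; 0.41 without *Trpm3*-I/M replicate 3, adjusted p = 0.0229). *Trpm3*-M/M lenses were 1.61-fold below *Trpm3*-I/M lenses (log2 fold change -0.69, SE 0.11, adjusted p = 1.64e-04, edgeR), and both of these calls were kept under 22 of 22 alternatives. Against wild-type, *Trpm3*-M/M lenses did not pass (log2 fold change -0.22, SE 0.11, adjusted p = 0.0968, edgeR). That value rests on single libraries, since it was -0.35 without *Trpm3*-M/M replicate 1 (adjusted p = 0.00253, edgeR) and -0.08 without replicate 3 (adjusted p = 0.483, edgeR), and it was 0.29 with scaling by library size only. *Dnajb1* and *Hspa1b* had opposite orders in the mutants, each by the test between them.

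*Hsp90ab1* was the most abundant member, and with TMM scaling neither HSP90 gene lay more than 0.18 on the log2 scale from wild-type in *Trpm3*-M/M lenses. *Hsp90ab1*, the constitutive HSP90, was at 1925, 2018 and 2068 CPM in wild-type, 2100, 2117 and 2105 in *Trpm3*-KO libraries, 2068, 2216 and 2196 in *Trpm3*-I/M libraries and 1919, 1694 and 1688 in *Trpm3*-M/M libraries. *Trpm3*-M/M replicate 1 lay just under the lowest wild-type library and the other 2 well below it. The log2 fold change of *Trpm3*-M/M was -0.18 against wild-type (SE 0.06, adjusted p = 0.0125, edgeR) and -0.29 against *Trpm3*-I/M (SE 0.06, adjusted p = 8.23e-04, edgeR). The first was not called without *Trpm3*-M/M replicate 2 or 3 (adjusted p = 0.0936 and 0.0819, edgeR), and with scaling by library size only it turned to 0.33 and the second to 0.02. *Hsp90aa1*, the inducible HSP90, ranged from 295 to 331 CPM over all libraries and differed from wild-type by a log2 fold change of 0.06 (SE 0.05, adjusted p = 0.263, edgeR) in *Trpm3*-M/M lenses and 0.04 (SE 0.05, adjusted p = 0.559, edgeR) in *Trpm3*-I/M lenses. With scaling by library size only, these values were 0.57 (adjusted p = 6.45e-07, edgeR) and 0.24 (adjusted p = 0.00432, edgeR).

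*Hsf1*, the gene of the heat shock transcription factor, ranged from 9.62 to 12.5 CPM and overlapped between all genotypes. Its log2 fold change against wild-type was 0.11 in *Trpm3*-M/M lenses (SE 0.08, adjusted p = 0.241, edgeR), -0.08 in *Trpm3*-I/M lenses (SE 0.08, adjusted p = 0.491, edgeR) and 0.03 in *Trpm3*-KO lenses (SE 0.08, adjusted p = 0.883, edgeR). With scaling by library size only, the value in *Trpm3*-M/M lenses was 0.62 (adjusted p = 5.54e-06, edgeR). RNA level says nothing of the factor's activity, which was not measured here.

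*Hspa8*, the constitutive HSP70, showed a wide spread in 2 genotypes. It was at 1172, 1376 and 748 CPM in wild-type, 1574, 1528 and 1505 in *Trpm3*-KO libraries, 1165, 738 and 1194 in *Trpm3*-I/M libraries and 1097, 1059 and 1133 in *Trpm3*-M/M libraries. Wild-type replicate 3 and *Trpm3*-I/M replicate 2 were low, and the *Trpm3*-KO libraries were above all others. No comparison with wild-type passed, the nearest being *Trpm3*-KO at a log2 fold change of 0.48 (SE 0.19, adjusted p = 0.199, edgeR). With scaling by library size only, *Trpm3*-M/M against wild-type passed at 0.52 (adjusted p = 0.0144, edgeR). *Trpm3*-M/M was below *Trpm3*-KO lenses by the test (log2 fold change -0.49, SE 0.19, adjusted p = 0.0404, edgeR), a call kept under 13 of 22 alternatives.

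*Hspa8* shares sequence with a processed pseudogene, *Gm15459*, which was looked at after the values were seen. Of the stretches of 100 bases in *Hspa8* transcripts, 26.3% also occur in *Gm15459*. Of the counts on both, *Gm15459* took 17.2%, 11.3% and 43.8% in wild-type libraries, 3.901%, 3.72% and 3.78% in *Trpm3*-KO libraries, 18.8%, 44.4% and 17.8% in *Trpm3*-I/M libraries and 20.3%, 18.1% and 15.5% in *Trpm3*-M/M libraries. The 2 libraries low in *Hspa8* were the 2 with over 40% of these counts on the pseudogene. Together, both genes reached 1433 ± 111 CPM (SD, n = 3) in wild-type, 1597 ± 37.5 in *Trpm3*-KO lenses, 1404 ± 67.6 in *Trpm3*-I/M lenses and 1337 ± 41.7 in *Trpm3*-M/M lenses. The spread of *Hspa8* alone was 29.2% of its mean in wild-type and 24.7% in *Trpm3*-I/M lenses. *Gm15459* on its own was lower in *Trpm3*-KO lenses than in wild-type lenses (log2 fold change -2.46, SE 0.40, adjusted p = 0.00258, edgeR). Whether this is a change of the pseudogene or of the placement of reads was not tested. Summed with the genes that share its stretches of 100 bases, an alternative chosen after seeing the data, *Hspa8* differed between *Trpm3*-M/M and *Trpm3*-KO lenses by a log2 fold change of -0.26 (SE 0.06, adjusted p = 0.00167, edgeR), smaller than that of *Hspa8* alone, and between *Trpm3*-KO and wild-type by 0.16 (SE 0.06, adjusted p = 0.168, edgeR).

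**Figure D3:**
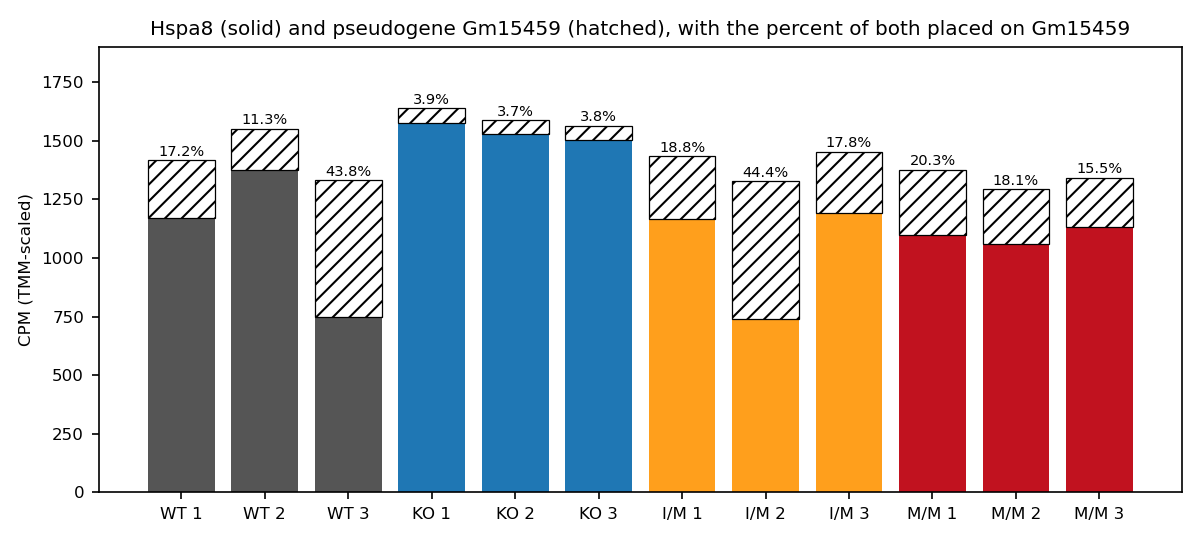
*Hspa8* (solid) and its processed pseudogene *Gm15459* (hatched, stacked on top) in CPM with TMM scaling for each of the 12 libraries, with the percent of their joint counts placed on *Gm15459* above each bar. Wild-type 3 and I/M 2 have the lowest solid bars and the highest percents, 43.8% and 44.4%, whereas the KO libraries have 3.72% to 3.901%.

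Compared between genes per kilobase of exons, the levels of wild-type lenses ranked *Hsp90ab1* first at 668 ± 24.2 CPM per kilobase (SD, n = 3), then *Hspa8* at 255 ± 74.5, *Dnajb1* at 80.1 ± 5.90 and *Hsp90aa1* at 77.7 ± 3.75. *Dnajb1* and *Hsp90aa1* overlapped between libraries, and no other pair of neighbours in this order did. *Hspa4* followed at 21.1 ± 0.757, *Hspa4l* at 2.89 ± 0.191, *Hsph1* at 2.54 ± 0.123, *Hsf1* at 1.55 ± 0.118, *Hspa1b* at 0.219 ± 0.0471 and *Hspa1a* at 0.0983 ± 0.0694 CPM per kilobase. In *Trpm3*-M/M lenses *Hspa1b* moved from rank 9 to rank 7, at 2.88 ± 0.258 CPM per kilobase, where it overlapped *Hsph1* at 2.49 ± 0.118. The order depends on the length used, which joins all annotated exons of a gene. That length was 2803 bases for *Hspa1b*, 7266 for *Hsph1* and 7099 for *Hsf1*. Not divided by length, *Hspa1b* was at 8.08 CPM in *Trpm3*-M/M lenses, below *Hsph1* at 18.1 and *Hsf1* at 11.8 CPM. Even at its highest, *Hspa1b* stayed far below *Hspa8*, at 255 ± 8.61 CPM per kilobase in *Trpm3*-M/M lenses. As a share of all counts, the 10 members took 0.337 ± 0.0141% in wild-type lenses, 0.400 ± 0.00857% in *Trpm3*-KO lenses, 0.408 ± 0.0258% in *Trpm3*-I/M lenses and 0.449 ± 0.0163% in *Trpm3*-M/M lenses. This share is not scaled, and the crystallin share given above moved against it. Summed with the genes that share their sequence, the members took 0.368% in wild-type and 0.4075% in *Trpm3*-KO lenses.

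Beside the members, the pathway lists below are read against the same backgrounds, 31.4% called in each direction in *Trpm3*-M/M lenses and 17.3% higher and 15.3% lower in *Trpm3*-I/M lenses. Without *Trpm3*-I/M replicate 3, the background in *Trpm3*-I/M lenses is 14.5% higher and 12% lower. Of 17 tested J-domain and nucleotide exchange genes (18 listed), 7 rose and 4 fell in *Trpm3*-M/M lenses, and 7 rose and 0 fell in *Trpm3*-I/M lenses (6 and 0 without *Trpm3*-I/M replicate 3). In *Trpm3*-KO against wild-type lenses 0 were called (edgeR), beside 2.16% higher and 2.2% lower of all genes. *Dnajc9*, among those called in *Trpm3*-M/M lenses, reached the filter only through the *Trpm3*-M/M libraries. *Bag3*, which links HSP70 to small heat shock proteins in autophagy, rose from 16.4 ± 1.14 CPM in wild-type to 32.3 ± 2.41 in *Trpm3*-I/M lenses (SD, n = 3; log2 fold change 0.97, adjusted p = 1.63e-06, edgeR) and 28.0 ± 3.11 in *Trpm3*-M/M lenses (0.77, adjusted p = 3.44e-06, edgeR). *Bag2*, an inhibitor of the ubiquitin ligase CHIP, rose by 0.90 on the log2 scale in *Trpm3*-M/M lenses (adjusted p = 4.97e-08, edgeR) and by 0.24 in *Trpm3*-I/M lenses (adjusted p = 0.0136, edgeR). *Dnajb2*, a J-domain gene, was 1.74-fold lower in *Trpm3*-M/M lenses, at 115 ± 16.1 CPM (SD, n = 3; log2 fold change -0.80, adjusted p = 3.82e-06, edgeR).

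Of 15 HSP90 co-chaperones, 3 rose and 7 fell in *Trpm3*-M/M lenses, and 2 rose and 0 fell in *Trpm3*-I/M lenses (1 and 0 without *Trpm3*-I/M replicate 3). *Ahsa1*, the activator of the HSP90 ATPase, had the largest change of the list, from 164 ± 6.45 to 93.2 ± 7.81 CPM in *Trpm3*-M/M lenses (SD, n = 3; log2 fold change -0.82, adjusted p = 1.08e-07, edgeR). *Tomm34* and *Unc45a* were higher, at log2 fold changes of 0.50 (adjusted p = 5.78e-05, edgeR) and 0.47 (adjusted p = 1.32e-04, edgeR). Of 8 tested subunits of the TRiC/CCT chaperonin, which folds actin and tubulin (9 listed), 4 were lower in *Trpm3*-M/M lenses, led by *Cct7* and *Cct5* (each -0.41) and *Tcp1* (-0.34), which stood at 0.10, 0.10 and 0.17 with scaling by library size only. In *Trpm3*-I/M lenses 3 subunits were higher and 1, *Tcp1*, was lower (log2 fold change 0.09 with scaling by library size only). Without *Trpm3*-I/M replicate 3 this call was lost (-0.11, adjusted p = 0.113, edgeR), and 1 subunit was higher and 0 lower.

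Among other HSP70 family genes, 2 of 3 tested (6 listed) were higher in *Trpm3*-M/M lenses, *Hspa2* at a log2 fold change of 0.41 (adjusted p = 0.00190, edgeR) and *Hspa13* at 0.14 (adjusted p = 0.0445, edgeR). Of 4 tested heat shock factors and HSF1 regulators (7 listed), of which *Hsf2* reached the filter only through the *Trpm3*-M/M libraries, 1 was called. This was *Hsf4*, the heat shock factor required in the lens, which went from 279 ± 5.13 CPM in wild-type to 226 ± 28.7 in *Trpm3*-M/M lenses (SD, n = 3; log2 fold change -0.31, adjusted p = 0.00157, edgeR; 0.20 with scaling by library size only).

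Of 11 tested other HSF1 targets (12 listed), 4 rose and 5 fell in *Trpm3*-M/M lenses, shares near the background of 31.4% in each direction, and 5 rose and 0 fell in *Trpm3*-I/M lenses. The small heat shock gene *Hspb8* was at 2.59 ± 0.474 CPM in wild-type, 4.32 ± 0.363 in *Trpm3*-KO lenses, 9.41 ± 1.42 in *Trpm3*-I/M lenses and 9.42 ± 0.751 in *Trpm3*-M/M lenses (SD, n = 3). With wild-type and *Trpm3*-KO levels below a CPM of 5, it reached the filter only through the mutant libraries, in which it is high. Its tests and its place in the counts above therefore depend on those libraries. Its log2 fold change from wild-type was 1.86 in both mutants (adjusted p = 7.69e-08 and 3.65e-07, edgeR) and 0.73 in *Trpm3*-KO lenses (adjusted p = 0.0115, edgeR). *Hspb1* was likewise called in all 3 genotypes, at log2 fold changes of 0.73 in *Trpm3*-M/M lenses (adjusted p = 2.59e-04, edgeR), 0.88 in *Trpm3*-I/M lenses (adjusted p = 1.64e-04, edgeR) and 0.59 in *Trpm3*-KO lenses (adjusted p = 0.0177, edgeR). *Hmox1*, the heme oxygenase, fell from 1188 ± 63.8 to 587 ± 157 CPM in *Trpm3*-M/M lenses (SD, n = 3; log2 fold change -1.02, adjusted p = 3.68e-05, edgeR). It was not called in *Trpm3*-I/M lenses (0.17, adjusted p = 0.408, edgeR).

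In other compartments, the HSP70, HSP90 and HSP110 genes of the endoplasmic reticulum were higher in both mutants. *Hspa5* (BiP) rose from 103 ± 3.41 CPM in wild-type to 169 ± 11.9 in *Trpm3*-I/M lenses and 223 ± 13.8 in *Trpm3*-M/M lenses (SD, n = 3), with log2 fold changes of 0.71 (adjusted p = 1.53e-06, edgeR) and 1.12 (adjusted p = 4.48e-09, edgeR). *Hsp90b1* was up by 0.37 and 0.72 and *Hyou1* by 0.44 and 0.52 on the log2 scale in the same order. In *Trpm3*-KO lenses *Hspa5* was at 104 ± 4.88 CPM (log2 fold change 0.01, adjusted p = 0.962, edgeR). The mitochondrial genes of the list, *Hspa9* and *Trap1*, were lower in *Trpm3*-M/M lenses at log2 fold changes of -0.14 (adjusted p = 0.0252, edgeR) and -0.23 (adjusted p = 1.69e-04, edgeR), which turned to 0.36 and 0.28 with scaling by library size only.

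**Figure D4:**
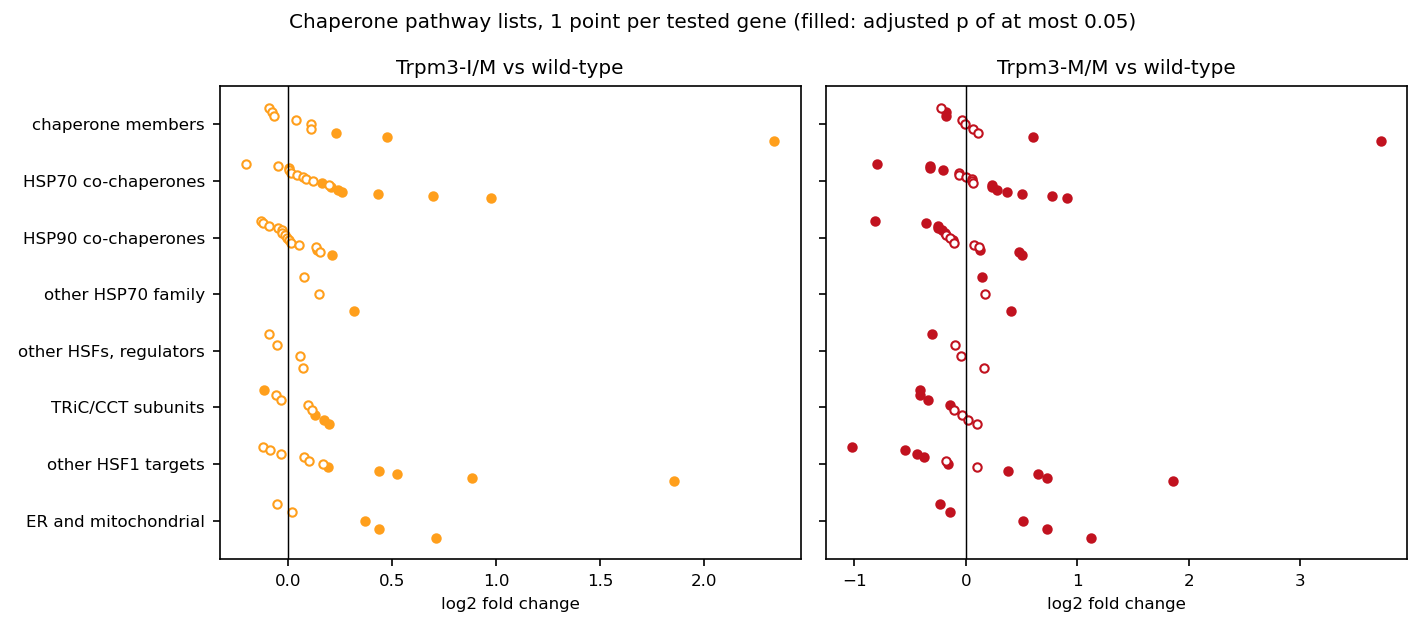
Log2 fold change against wild-type (x axis, a different scale in each panel) of each tested gene in the member list and 7 related lists (rows), for *Trpm3*-I/M (left) and *Trpm3*-M/M (right); filled points have an adjusted p of at most 0.05. Of 58 genes tested in the 6 pathway lists, 18 rose and 1 fell in I/M, beside 17.3% and 15.3% of all genes. In M/M 16 rose and 21 fell, beside 31.4% in each direction. With scaling by library size only, 46 rose and 0 fell in I/M (51.9% and 3.95% of all genes), and 50 and 3 in M/M (82% and 5.51%).

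The 6 pathway lists together leave out the members and the separate list of *Hspa5*, *Hsp90b1*, *Hyou1*, *Hspa9* and *Trap1*. Over these 6 lists, 16 of 58 tested genes rose and 21 fell in *Trpm3*-M/M lenses, beside 31.4% of all genes in each direction. The 58 include *Dnajc9* and *Hsf2*, tested only through the *Trpm3*-M/M libraries, and *Hspb8*, tested only through mutant libraries. With scaling by library size only 50 rose and 3 fell, beside 82% and 5.51% of all genes. Of the same genes, 18 rose and 1 fell in *Trpm3*-I/M lenses, beside 17.3% and 15.3% of all genes. Without *Trpm3*-I/M replicate 3 these were 14 and 0, beside 14.5% and 12% of all genes. With scaling by library size only they were 46 and 0, beside 51.9% and 3.95% of all genes. In *Trpm3*-KO lenses 2 rose and 0 fell, beside 2.16% and 2.2% of all genes.

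The genes most like *Hspa1b* over the 12 libraries, by Pearson's r of log2 CPM, were *Elk3* (0.991), *Hace1* (0.990) and *Igfbp2* (0.989). Those most like *Hspa4l* were *Myom1* (0.983), *Hprt* (0.982) and *Washc5* (0.980), and those most like *Dnajb1* were *Ppp4c* (0.960), *Dynll2* (0.959) and *Med10* (0.944). The 12 points share genotypes of 3 libraries each, so these values describe the pattern across genotypes and carry no test.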

How the data were processed

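Lens RNA from 12 libraries was analysed, and groups were taken from the labels. The authors selected polyA RNA, sequenced it, aligned and quantified reads with DRAGEN to the Ensembl release given in their methods (mm10), and deposited unnormalized estimated counts per gene. A second table that the authors deposited holds their own edgeR comparisons (log2 fold changes, p-values, FDR, CPM), whose results were not used; its counts equaled those of the full table for all 9470 genes. Counts were planned to be whole but only 88.4% were, so they were rounded. Rounding, read splitting between near-identical genes and unstated strand handling can affect values. The 8984 genes that reached a CPM of 5 or more in 3 or more libraries entered 1 fit of edgeR 4.0.16 (R 4.3.3; TMM factors, quasi-likelihood test, Benjamini–Hochberg adjustment within each comparison) over all 12 libraries with genotype as the factor. A gene was called at FDR of at most 0.05, and an FC of at least 2 was counted besides. The alternatives included DESeq2 1.42.0, other scalings and filters, the replicate number as a block and each library left out. The procedure was tested on simulated data. Library totals of 56162169 to 82090198 set the counting precision. P-values measure the spread between these pools of lenses.

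The members and gene lists were chosen with earlier results of these data known. Lists covered HSP70 and HSP90 co-chaperones, other HSP70 genes, heat shock factors, TRiC/CCT, other HSF1 targets, organelle chaperones, immediate early genes and cell type markers. Named genes were all members, *Trpm3*, and from each pathway, organelle and immediate early list the 3 called genes with the largest change in *Trpm3*-M/M against wild-type, plus the 3 genes most correlated with a tested member. *Gm15459*, *Hspa9*, *Trap1*, *Xist*, *Gm20481*, *Egr1*, *Jun*, *Jund*, *Egfl7*, *Tek*, *Acta2*, *Pdgfra*, *Sfrp1*, *Pdpn*, *Npnt*, *Dnajc9* and *Hsf2* were named after their values were seen. Coordinates, exon lengths and shared stretches of 100 bases come from GENCODE for GRCm38, and promoter sequences from RefSeq for GRCm38.p6, where 6 of 10 members matched.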

Additional observations from a re-analysis of the deposited data

How the results depend on the processing

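The rise of *Hspa4l* in *Trpm3*-M/M lenses and of *Dnajb1* in *Trpm3*-I/M lenses kept direction and call under 22 of 22 alternatives. *Hspa1b* was tested under 19 alternatives that change 1 choice, most of which keep the filter that it reaches only through *Trpm3*-M/M libraries; it was called under each, at 3.58 to 4.23 on the log2 scale in *Trpm3*-M/M and 2.19 to 2.54 in *Trpm3*-I/M lenses. Leaving out any 1 *Trpm3*-M/M library removed it from the test. Summing members with genes that share their sequence was also chosen after seeing the data.

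Scaling by library size only moved the median of all genes by 0.50 in *Trpm3*-M/M lenses, 0.20 in *Trpm3*-I/M lenses and 0.05 in *Trpm3*-KO against wild-type. Members called higher then numbered 9 in *Trpm3*-M/M lenses and 7 in *Trpm3*-I/M against wild-type, 6 in *Trpm3*-M/M against *Trpm3*-I/M and 7 against *Trpm3*-KO, and those called lower numbered 0, 0, 1 and 0. Of the 8984 genes tested, 7364, 4661, 6326 and 7004 were called higher and 495, 355, 488 and 619 lower in the same comparisons. In *Trpm3*-M/M against wild-type this scaling turned the log2 fold changes of *Hspa8* to 0.52, *Hspa4* to 0.33, *Hsph1* to 0.47, *Hsp90ab1* to 0.33 and *Dnajb1* to 0.29. In *Trpm3*-I/M against wild-type it turned *Hspa8* to 0.12, *Hspa4* to 0.13 and *Hsf1* to 0.13, and in *Trpm3*-KO lenses *Hspa4* to 0.0284. Against *Trpm3*-I/M, *Trpm3*-M/M values turned to 0.20 for *Hspa4*, 0.17 for *Hsph1* and 0.0175 for *Hsp90ab1*, and against *Trpm3*-KO to 0.30 for *Hspa4*, 0.31 for *Hsph1*, 0.20 for *Hsp90ab1* and 0.19 for *Dnajb1*. For the pathway lists, library size only gave 50, 46, 32 and 50 higher and 3, 0, 6 and 3 lower in these 4 comparisons.

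With an FC of at least 2 as well, 1 member was higher in each of these 4 comparisons and 0 lower, and the lists gave 1, 1, 0 and 2 higher and 1, 0, 1 and 1 lower, with 0 higher in *Trpm3*-KO against wild-type. Of all 8984 genes, 577, 232, 330 and 615 were then higher and 227, 67, 92 and 264 lower, with 21 higher in *Trpm3*-KO against wild-type. With only the libraries compared, 1 member was lower in *Trpm3*-M/M against wild-type and 2 against *Trpm3*-I/M, beside 2616 and 2242 of 8984 genes. Without a filter on low counts, *Hspa8* was called in *Trpm3*-KO lenses (1 member higher), beside 594 of 32253 genes higher. *Hsp90aa1* then turned to -0.0124 in *Trpm3*-M/M against *Trpm3*-I/M, and with a CPM of at least 1 it turned to -0.006 against *Trpm3*-KO. The list genes lower in *Trpm3*-I/M against wild-type numbered 1, and 2 with DESeq2 but 0 with a CPM of at least 1, with only the libraries compared and with the replicate block. Summed with sharing genes, *Hspa8* turned to -0.0726 in *Trpm3*-M/M against *Trpm3*-I/M, and the members' share of counts was 0.368% in wild-type lenses, 0.4075% in *Trpm3*-KO lenses, 0.448% in *Trpm3*-I/M lenses and 0.482% in *Trpm3*-M/M lenses. The cause of these shifts was not tested.

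Same-numbered libraries showed little shared deviation (r from -0.264 to 0.149 over 18 pairs, 2 above 0.1), and 2 of 12 libraries correlated best with their own number. The main fit therefore used no pairing by number. These correlations alone do not settle whether same-numbered libraries were handled together. With the replicate block, 3 members rather than 5 were lower in *Trpm3*-M/M against *Trpm3*-KO, beside 2856 of 8984 genes. *Hspa8* in *Trpm3*-M/M against wild-type was then at 0.0025.

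With each library left out in turn, the members called higher ranged from 1 to 2 in *Trpm3*-M/M lenses and 2 to 3 in *Trpm3*-I/M against wild-type. They ranged from 1 to 3 in *Trpm3*-M/M against *Trpm3*-I/M and 1 to 2 against *Trpm3*-KO. Those called lower ranged from 1 to 3, 0 to 0, 2 to 4 and 2 to 5 in the same order. *Hspa1b* was not tested in the fits without a *Trpm3*-M/M library, so these ranges mix fits with and without it. List genes ranged from 15 to 18, 13 to 18, 5 to 7 and 12 to 14 higher and from 17 to 23, 0 to 2, 20 to 25 and 20 to 26 lower, and from 0 to 3 higher in *Trpm3*-KO against wild-type. These fits tested 8454 to 8983 genes. Of all genes, 2389 to 2823, 1252 to 1461, 1787 to 2372 and 2460 to 2901 were higher, and 118 to 213 in *Trpm3*-KO against wild-type. Those lower numbered 2360 to 2816, 1076 to 1377, 1803 to 2346 and 2440 to 2999. The members' share of counts ranged from 0.332% to 0.345% in wild-type lenses, 0.395% to 0.404% in *Trpm3*-KO lenses, 0.396% to 0.422% in *Trpm3*-I/M lenses and 0.441% to 0.458% in *Trpm3*-M/M lenses. Uncalled values that changed sign were *Hspa8* in *Trpm3*-M/M lenses (-0.22 to 0.19) and *Trpm3*-I/M (-0.31 to 0.10) against wild-type and in *Trpm3*-M/M against *Trpm3*-I/M (-0.10 to 0.20), *Hsph1* in *Trpm3*-M/M lenses (-0.0638 to 0.0198) and *Hsf1* in *Trpm3*-KO against wild-type (-0.0189 to 0.0902), and *Hsp90aa1* in *Trpm3*-M/M against *Trpm3*-KO (-0.0015 to 0.0805).

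Depth limits *Hspa1a* most, with 3.95 to 24.5 counts in wild-type libraries. Estimated counts of *Hspa1a*, *Hspa1b*, *Hspa8* and *Hsp90aa1* are uncertain because copies share their sequence.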
